A study of Mus musculus with 6 samples.

Results

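The proteasome genes described here were the 46 rows of a 14647-gene expression table whose symbols begin with *Psma* to *Psmg* followed by a number, leaving out symbols with a hyphen. All 46 were among the 13547 genes that passed the filter for testing, a mean of at least 0.5 RPKM (reads scaled by gene length and library size). Of these, 45 encode proteasome subunits, activators, an inhibitor or assembly chaperones. The remaining gene, *Psmc3ip*, encodes a meiotic recombination factor that only shares the start of its symbol. The immunoproteasome genes *Psmb8* and *Psmb9* and the thymic subunit gene *Psmb11* are not rows of the table and were not analysed here.

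The study sequenced total RNA of the pharyngeal region from 3 *Pax9*-null (*Pax9*-/-) and 3 wild-type (*Pax9*+/+) mouse embryos at E9.5, on a C57Bl/6J background and matched by somite number, with 1 library from each embryo. *Pax9* encodes a paired-box transcription factor of the pharyngeal endoderm, and the null allele is present in every cell of the embryo. The tissue ran from the boundary of the first and second arches to the base of the heart, so that endoderm, ectoderm, neural crest, mesoderm and blood were measured together. In such bulk tissue fewer cells of a type and less RNA per cell cannot be told apart. The labels name sorted cells and another library kit, whereas the methods of the study describe whole dissected tissue, and the latter are followed here.

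The proteasome degrades proteins that carry ubiquitin chains. Its core particle is a barrel of alpha rings around beta rings, with the catalytic sites inside, and its regulatory particle caps the barrel. The base of this cap holds a ring of ATPases that unfold the substrate, and its lid removes the ubiquitin. Rapidly dividing embryonic tissue uses the complex throughout, since cyclins and many signalling proteins are removed by it.

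Of the 14 constitutive genes of the core particle 8 were higher as deposited in *Pax9*-null embryos. Of the 17 genes of the regulatory particle with a *Psm* symbol 3 were higher and 1 was lower. The lid subunit gene *Sem1* has another symbol and is described with the related genes. The parts of the complex were not tested against each other. In a limma test on the log2 RPKM values over all tested genes, 13 of the 46 proteasome genes were higher in the mutants and 1 was lower, with calls made at an adjusted *P* of up to 0.1. Over all 13547 genes tested the shares were 14.7% higher and 12.0% lower, which also stand beside the counts of each class of proteasome genes that follow. Of the 13 higher genes, 6 belong to the alpha ring (*Psma1*, *Psma2*, *Psma3*, *Psma5*, *Psma6* and *Psma7*) and 2 to the beta ring (*Psmb1* and *Psmb7*). The others were the ATPase gene *Psmc6*, the lid genes *Psmd6* and *Psmd14*, and the assembly chaperone genes *Psmd5* and *Psmg2*. The lid gene *Psmd3* was the one lower gene. The 13 genes ranged between 0.26 and 0.46 on the log2 scale, and *Psmd3* was at −0.39. The largest of these calls correspond to 138% of the wild-type level for *Psma3* and 76.2% for *Psmd3*. At an adjusted *P* of at most 0.05, *Psma3* and *Psmd6* were the 2 genes higher and 0 were lower, against 6.15% and 3.71% of all genes tested. In the same limma test 19 were higher and 1 lower at an unadjusted *P* under 0.05, against 18.7% and 16.4% of all genes. These *P* values set the genotype difference against the spread between the 3 embryos within each genotype, which limma moderates over all genes. An exact permutation test of 3 against 3 cannot go below 0.1.

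The calls depended on how the libraries were scaled, and the sign of 2 of the 14 called genes turned under quantile normalization and of 3 when length and GC trends were removed. Among the 32 genes not called, the sign of 15 and 14 turned. Quantile normalization, which gives every library the same distribution of values, left *Psma3* alone as higher and 5 genes as lower (*Psmc1*, *Psmc3*, *Psmc5*, *Psmd2* and *Psmd3*). Among all genes tested it called 10.6% higher and 12.9% lower. Removing from each library a smooth trend of expression with gene length and GC content left 0 genes higher and 5 lower (*Psma6*, *Psmb2*, *Psmb5*, *Psmc5* and *Psmd10*), with 1.68% and 1.97% of the 13524 genes with an annotation called. Of the 46 proteasome genes 5 were then higher and 9 lower at an unadjusted *P* under 0.05 in limma, against 10.6% and 11.9% of all genes. The median log2 fold change of the 46 genes was 0.16 as deposited, −0.02 after quantile normalization and 0.01 without the trends. The same median over all genes tested was 0.00, −0.03 and −0.01.

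**Figure D1:**
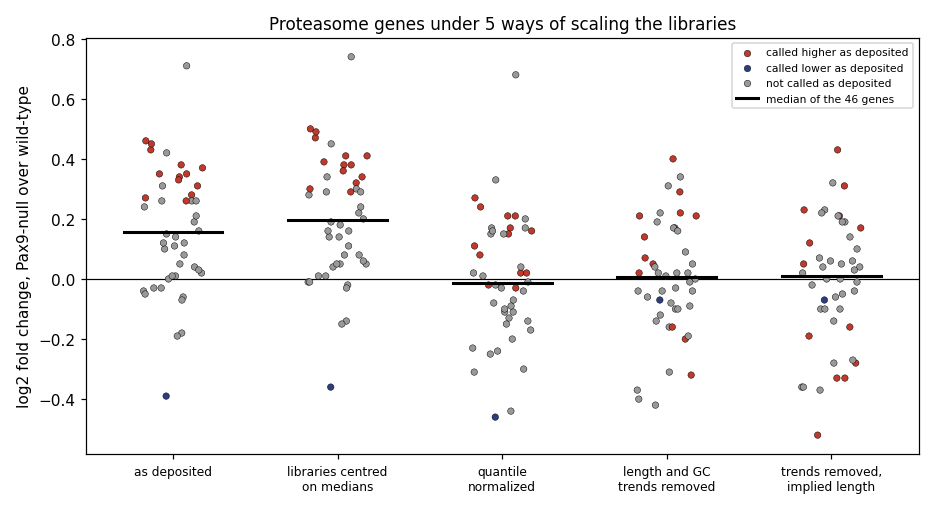
The log2 fold change of each of the 46 proteasome genes (vertical axis, *Pax9*-null over wild-type) under 5 scalings of the libraries. Points are genes, coloured by their call as deposited, and bars are medians, which lie at 0.16 as deposited and 0.19 after centring on the library medians but between −0.02 and 0.01 under the other 3.

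Promoters are shown for 3 genes with different fold changes, and not for *Psmd3*, the one gene called lower. These are *Psma3*, the gene with the smallest adjusted *P*, *Psmc6*, the one ATPase gene called higher, and *Psmd2*, a base gene whose *Pax9*-null libraries all lay below the wild-type libraries without passing the test. The sequences are from RefSeq (GRCm38.p6), run 5′ to 3′ on the coding strand, end where the annotated gene body begins, and carry 3 motifs in capitals on either strand. The motifs are the antioxidant response element TGACNNNGC bound by NFE2L1 and NFE2L2, the ETS motif CCGGAAG and the CCAAT box.

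Psma3 chr12:70974373-70974620, plus strand: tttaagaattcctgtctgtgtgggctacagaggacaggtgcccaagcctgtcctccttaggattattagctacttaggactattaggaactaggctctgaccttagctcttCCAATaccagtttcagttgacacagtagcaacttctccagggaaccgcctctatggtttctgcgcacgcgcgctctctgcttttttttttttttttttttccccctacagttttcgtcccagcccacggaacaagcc

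Psmc6 chr14:45329574-45329787, plus strand: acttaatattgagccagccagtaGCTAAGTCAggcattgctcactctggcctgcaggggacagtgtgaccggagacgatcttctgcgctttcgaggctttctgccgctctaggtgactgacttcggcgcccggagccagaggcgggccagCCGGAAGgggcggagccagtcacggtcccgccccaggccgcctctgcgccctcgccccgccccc

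Psmd2 chr16:20651402-20651651, plus strand: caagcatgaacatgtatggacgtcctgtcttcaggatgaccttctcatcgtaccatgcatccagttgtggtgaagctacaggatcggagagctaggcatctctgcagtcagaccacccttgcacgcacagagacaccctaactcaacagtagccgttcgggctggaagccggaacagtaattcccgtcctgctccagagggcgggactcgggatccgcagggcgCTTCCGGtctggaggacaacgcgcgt

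The *Psma3* stretch held a CCAAT box, that of *Psmc6* an antioxidant response element and an ETS motif, and that of *Psmd2* an ETS motif read from the other strand. RefSeq promoters of 250 bases before to 50 after the start matched 38 of the 46 genes, with 41 promoters. Over these, the ETS motif was present in 39.0% of the proteasome promoters, in 8.86% of all 32851 promoters and in 17.1% of those of the tested genes. The antioxidant response element was in 14.6%, compared with 12.4% and 14.2%. The CCAAT box was in 31.7%, compared with 37.4% and 37.9%, and the GC box GGGCGG, which can abut the ETS motif, was in 56.1%, compared with 35.7% and 63.4%. Of the 15 genes with an ETS motif, 3 were called higher (*Psma6*, *Psmc6* and *Psmd6*). The motifs were picked after the expression values had been seen, and a match of letters is a description of the sequence.

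Levels differed widely between the genes, with wild-type means from 0.62 to 265 RPKM. Wild-type means per length were highest for *Psma2* (265 ± 19.7 RPKM, SD, *n* = 3), *Psmb1* (253 ± 25.2), *Psmc1* (230 ± 9.50) and *Psmc6* (225 ± 30.4). The lengths implied by the values for these genes were 944, 1036, 1518 and 1564 bp. Their annotated lengths were 3673, 4595, 1933 and 3498 bp, so that the order depends on the length used. Neighbours in this order differed by less than the larger of their SDs. *Psma8* was lowest, at 0.62 ± 0.139 RPKM. The median of the 46 wild-type levels was 73.1 RPKM. Behind each value stood between 10 and 8511 reads, and apart from *Psma8* and *Psmb10* every gene had at least 131 reads in every library.

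**Figure D2:**
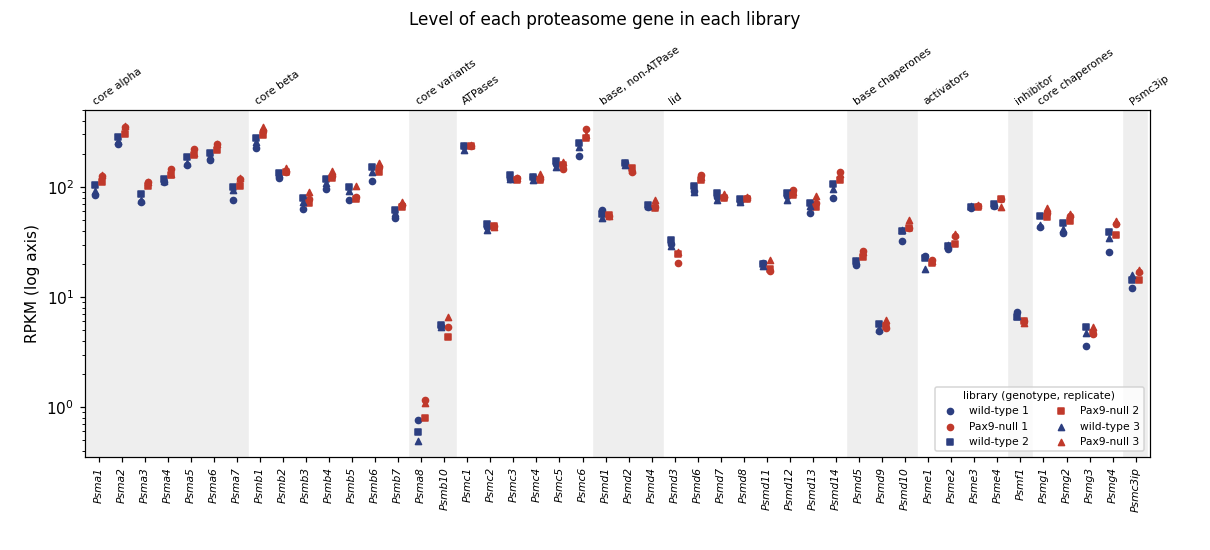
RPKM of each proteasome gene in each library (log axis), grouped by part of the complex, in blue for wild-type and red for *Pax9*-null. The red symbols of the alpha ring genes lie above the blue ones as deposited, and most ATPase and lid genes show overlapping symbols.

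All 7 alpha ring genes had higher values in the 3 *Pax9*-null libraries than in any wild-type library, and 6 of them passed the test. Their median log2 fold change was 0.34, with a range of 0.24 to 0.46, and became 0.02 after quantile normalization and 0.05 without the trends. The alpha subunits form the outer rings of the barrel and the gate through which substrates enter. *Psma3* was at 6.78, 6.68 and 6.80 log2 RPKM in *Pax9*-null embryos 1 to 3 and at 6.18, 6.43 and 6.26 in wild-type embryos 1 to 3. The groups did not overlap, and the difference of 0.46 ± 0.09 (SE, adjusted *P* = 0.0366, limma) corresponds to 138% of the wild-type level. The gene lies at chr12:70974621-70996347 (GRCm38, GENCODE M21), and its sign was positive under every alternative run.

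*Psma1* was at 6.98, 6.79 and 7.01 log2 RPKM in *Pax9*-null and 6.40, 6.71 and 6.53 in wild-type libraries (0.38 ± 0.11, adjusted *P* = 0.0625). The gap between the lowest *Pax9*-null and the highest wild-type library was narrow, and wild-type 2 stood above the other wild-type libraries. *Psma2*, which encodes another ring subunit and had the highest RPKM as deposited, was at 8.46, 8.26 and 8.49 against 7.94, 8.16 and 8.05 (0.35 ± 0.11, adjusted *P* = 0.0750). Its fold change was −0.02 after quantile normalization, and −0.52 and called lower where the trends removed used the gene lengths implied by the values. *Psma7* was at 6.87, 6.67 and 6.92 against 6.25, 6.63 and 6.55 (0.34 ± 0.12, adjusted *P* = 0.0974), and kept its sign under quantile normalization (0.15) and without the trends (0.40).

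*Psma6* was at 7.94, 7.76 and 7.94 log2 RPKM in *Pax9*-null libraries and 7.46, 7.68 and 7.57 in wild-type libraries (0.31 ± 0.10, adjusted *P* = 0.0851). Without the trends it turned to −0.32 and was then called lower. *Psma5* was at 7.80, 7.60 and 7.68 against 7.31, 7.54 and 7.37 (0.28 ± 0.10, adjusted *P* = 0.0974), and was at −0.20 without the trends. Of the 50-base words in the *Psma5* transcripts 49.1% occur in another gene, so that reads of this gene may have been split or lost in counting. *Psma4*, the one alpha gene that did not pass, was at 7.20, 7.02 and 7.02 against 6.78, 6.90 and 6.84 (0.24 ± 0.09, 95% confidence interval 0.03 to 0.45, adjusted *P* = 0.105).

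**Figure D3:**
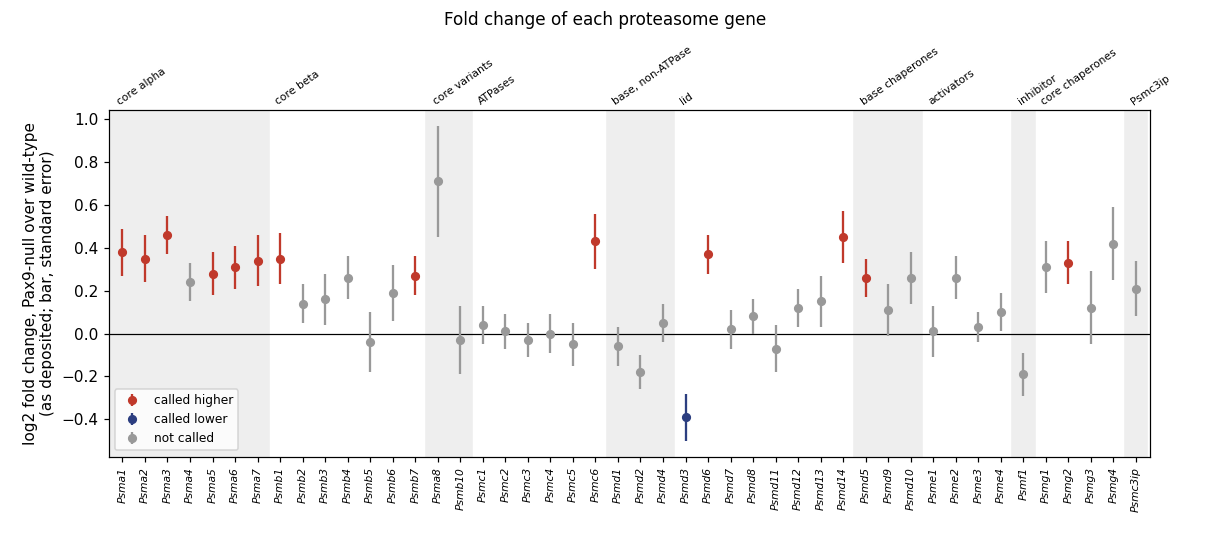
Log2 fold change (*Pax9*-null over wild-type, as deposited) of each proteasome gene with its standard error. Red marks genes called higher, blue the one called lower and grey those not called, and the alpha ring lies between 0.24 and 0.46, whereas 5 of the 6 ATPase genes lie between −0.05 and 0.04.

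Among the 7 constitutive beta ring genes, which include the catalytic subunits, 2 were higher and 0 lower, and 6 had a positive fold change. The median was 0.19, and −0.03 after quantile normalization and 0.02 without the trends. *Psmb1* was at 8.34, 8.20 and 8.44 log2 RPKM in *Pax9*-null embryos and at 7.82, 8.11 and 8.0 in wild-type embryos (0.35 ± 0.12, adjusted *P* = 0.0846). This non-catalytic subunit gene was at −0.03 after quantile normalization, and −0.33 and called lower where the trends used the implied lengths. *Psmb7*, for the trypsin-like catalytic subunit, was at 6.09, 6.04 and 6.19 against 5.70, 5.95 and 5.87 (0.27 ± 0.09, adjusted *P* = 0.0924), and 11.8% of its exonic bases overlap another gene, *Nek6*.

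The other catalytic subunits did not pass. *Psmb6*, for the caspase-like subunit, was at 7.24, 7.11 and 7.37 against 6.82, 7.26 and 7.09 (0.19 ± 0.13, adjusted *P* = 0.336), with overlapping groups. *Psmb5*, for the chymotrypsin-like subunit that proteasome inhibitors target, was at 6.34, 6.27 and 6.68 against 6.26, 6.65 and 6.51 (−0.04 ± 0.14, 95% confidence interval −0.37 to 0.29). Its transcripts share 54.1% of their 50-base words with other genes, so its level is uncertain. The non-catalytic *Psmb2*, *Psmb3* and *Psmb4* lay between 0.14 and 0.26 and did not pass.

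Special forms of the core had low levels, and *Psma8* was near the filter. *Psmb10* encodes the induced subunit that takes the place of the *Psmb7* product in the immunoproteasome. It was at 2.42, 2.12 and 2.72 log2 RPKM in *Pax9*-null and 2.44, 2.47 and 2.43 in wild-type libraries (−0.03 ± 0.16, adjusted *P* = 0.921). Per length this amounted to 7.76% of the *Psmb7* level in *Pax9*-null and 9.51% in wild-type embryos. The log2 ratio of *Psmb10* to *Psmb7* within a library was −3.68, −3.91 and −3.48 in *Pax9*-null and −3.26, −3.49 and −3.44 in wild-type embryos. The difference of −0.29 did not pass an exact two-sided permutation test (*P* = 0.2), and the groups overlapped. *Psma8*, an alpha subunit of testis proteasomes, was at 0.20, −0.33 and 0.11 against −0.38, −0.74 and −1.02 (0.71 ± 0.26, adjusted *P* = 0.101). Between 10 and 22 reads stood behind each of these values, and its groups did not overlap. Both genes together gave 0 calls in limma and in voom, with *Psma8* higher at an unadjusted *P* under 0.05 in each.

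The ATPases of the base form a ring of 6 different subunits that pull the substrate into the core. Of their genes 1 was higher, 0 were lower, and the median log2 fold change was 0.01, with −0.24 after quantile normalization and −0.10 without the trends. *Psmc6* stood apart, at 8.38, 8.12 and 8.22 log2 RPKM in *Pax9*-null and at 7.59, 7.98 and 7.85 in wild-type libraries. Its fold change of 0.43 ± 0.13 (adjusted *P* = 0.0684) was positive after quantile normalization (0.08) and without the trends (0.14), but −0.19 where the trend used the gene lengths implied by the deposited values. The other 5 lay between −0.05 and 0.04, and the genotypes overlapped in each. *Psmc5*, at the lower end, was at 7.19, 7.29 and 7.41 against 7.35, 7.43 and 7.25 (−0.05 ± 0.10, 95% confidence interval −0.27 to 0.18). *Psmc1*, at the upper end of these 5, had an interval of −0.16 to 0.25.

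The base also holds the scaffold subunits *Psmd1* and *Psmd2* and the ubiquitin receptor *Psmd4*, of which none passed in limma or voom. At an unadjusted *P* under 0.05, 0 of the 3 passed in limma and *Psmd2* in voom. *Psmd2* was at 7.11, 7.21 and 7.17 log2 RPKM in *Pax9*-null and at 7.38, 7.36 and 7.30 in wild-type libraries. Its 3 *Pax9*-null values all lay below the wild-type values (−0.18 ± 0.08, adjusted *P* = 0.163), and it was called lower after quantile normalization (−0.44). *Psmd4* was at 6.05, 6.01 and 6.25 against 6.02, 6.08 and 6.07 (0.05 ± 0.09, 95% confidence interval −0.16 to 0.25).

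Of the 8 lid genes with a *Psm* symbol 2 were higher and 1 lower, where 14.7% and 12.0% of all genes tested were. Their median log2 fold change was 0.10. *Psmd14* encodes the enzyme that cuts ubiquitin chains from the substrate. It was at 7.09, 6.85 and 7.04 log2 RPKM in *Pax9*-null embryos and at 6.31, 6.72 and 6.58 in wild-type embryos (0.45 ± 0.12, adjusted *P* = 0.0569). *Psmd6*, a scaffold subunit of the lid at chr14:14112174-14120984, was at 7.01, 6.85 and 6.95 against 6.51, 6.69 and 6.49 (0.37 ± 0.09, adjusted *P* = 0.0474). Neither gene's groups overlapped, and both had positive fold changes after quantile normalization (0.24 and 0.16) and without the trends (0.07 and 0.21).

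*Psmd3*, a further lid scaffold at chr11:98682554-98695979, was at 4.33, 4.63 and 4.69 log2 RPKM in *Pax9*-null and 4.93, 5.05 and 4.85 in wild-type libraries. All *Pax9*-null values were below the wild-type values (−0.39 ± 0.11, adjusted *P* = 0.0616), which is 76.2% of the wild-type level. It was at −0.46 after quantile normalization and −0.07 without the trends. The other 5 lid genes, among them *Psmd7*, the partner of *Psmd14* in the enzyme, lay between −0.07 and 0.15 with overlapping groups. Products of all these genes sit in one complex, yet *Psmd14* and *Psmd3* were separated by their intervals (0.16 to 0.74 and −0.65 to −0.13) as deposited.

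Assembly chaperones hold subunits in place while rings form and leave the finished particle. Of the 7 chaperone genes 2 were higher and 0 lower, all 7 had positive fold changes, and the median was 0.26, with 0.17 after quantile normalization and −0.12 without the trends. *Psmg2*, whose product starts alpha ring assembly with that of *Psmg1*, was at 5.76, 5.62 and 5.82 log2 RPKM in *Pax9*-null and 5.27, 5.56 and 5.38 in wild-type libraries. The difference was 0.33 ± 0.10 (adjusted *P* = 0.0706), and −0.16 without the trends, or −0.33 and called lower where they used the implied lengths. *Psmg1* was close to it in size (0.31 ± 0.12, adjusted *P* = 0.105), with overlapping groups. *Psmg4*, whose product acts with that of *Psmg3*, was at 5.53, 5.19 and 5.62 against 4.68, 5.28 and 5.12 (0.42 ± 0.17, adjusted *P* = 0.130). *Psmg3* was at 2.21, 2.22 and 2.42 against 1.84, 2.41 and 2.24 (0.12 ± 0.17).

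The chaperones of the base make up the rest of this group. *Psmd5* was at 4.70, 4.53 and 4.67 log2 RPKM in *Pax9*-null embryos and at 4.29, 4.41 and 4.42 in wild-type embryos (0.26 ± 0.09, adjusted *P* = 0.0822). It was the chaperone gene whose value moved least with scaling, with 0.21 after quantile normalization and 0.29 without the trends. *Psmd10*, known as gankyrin, was at 5.41, 5.39 and 5.63 against 5.02, 5.30 and 5.34 (0.26 ± 0.12, adjusted *P* = 0.154), and turned to −0.42 and a lower call without the trends. *Psmd9* was at 2.40, 2.45 and 2.64 against 2.30, 2.52 and 2.34 (0.11 ± 0.12, adjusted *P* = 0.559), and 25.5% of its exonic bases overlap another gene.

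Activators open the core gate in place of the regulatory particle, and the inhibitor gene *Psmf1* encodes a protein that binds the core. Of the 4 activator genes 0 passed in limma or voom, and *Psme2* alone was higher at an unadjusted *P* under 0.05 in both. *Psme2* was at 5.17, 4.93 and 5.21 log2 RPKM in *Pax9*-null and 4.78, 4.86 and 4.89 in wild-type libraries (0.26 ± 0.10, adjusted *P* = 0.108), with 28.3% of its 50-base words shared with other genes. *Psme1*, which encodes the other subunit of this interferon-induced cap, was at 4.45, 4.34 and 4.42 against 4.55, 4.49 and 4.15 (0.01 ± 0.12, 95% confidence interval −0.26 to 0.28). The nuclear activator genes *Psme3* and *Psme4* were at 0.03 and 0.10. *Psmf1* was at 2.61, 2.60 and 2.54 against 2.86, 2.71 and 2.74 (−0.19 ± 0.10, adjusted *P* = 0.225), so that every *Pax9*-null value lay below the wild-type values. *Psmc3ip*, the gene outside the complex, was at 0.21 ± 0.13 (adjusted *P* = 0.295).

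Counted without a test, the 3 *Pax9*-null values lay above the 3 wild-type values for 19 of the 46 genes and below them for 3 (*Psmd2*, *Psmd3* and *Psmf1*), and the groups overlapped for 24. Over all genes tested the shares were 21.8% above and 20.1% below. Among the 14 constitutive core genes 11 lay above, and among the 17 genes of the regulatory particle with a *Psm* symbol 3 lay above and 2 below. The mean over the core genes was 163, 147 and 169 RPKM in *Pax9*-null embryos and 119, 143 and 132 RPKM in wild-type embryos. For these 17 genes of the regulatory particle it was 111, 106 and 113 RPKM against 99.4, 108 and 98.9 RPKM. The ratio of the 2 means, as deposited, was 1.48, 1.40 and 1.5 against 1.20, 1.33 and 1.34, and was not tested. The median log2 fold change of the core genes was 0.28 as deposited, 0.02 after quantile normalization and 0.03 without the trends. For the genes of the regulatory particle it was 0.02, −0.13 and 0.00. Core genes had a lower median GC content than those of the regulatory particle (47.4% against 50.9%) and a lower median length (1912 against 2808 bp), and the part of these properties in the ratio was not tested.

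**Figure D4:**
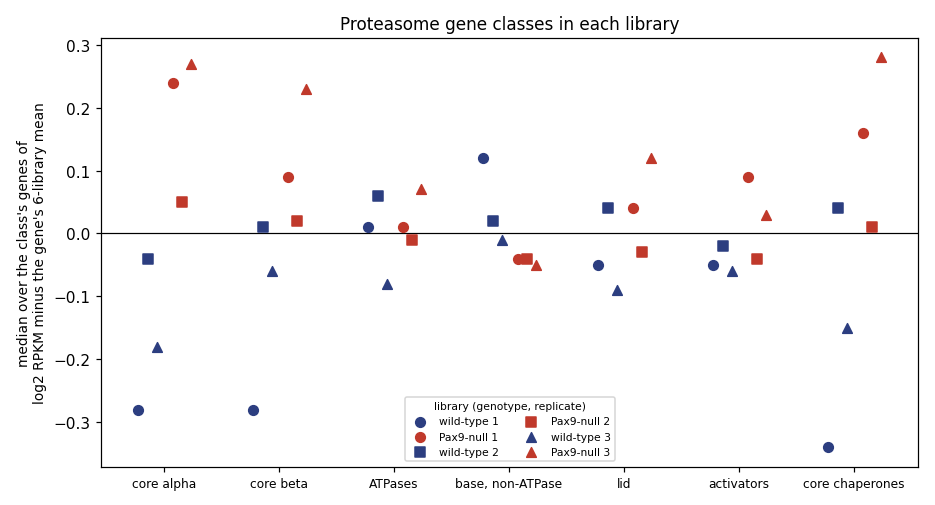
For 7 classes of proteasome genes, the median over the class of log2 RPKM minus the gene's mean over the 6 libraries (vertical axis), with 1 symbol for each library. For the alpha ring *Pax9*-null 1 and 3 stand at 0.24 and 0.27 and wild-type 1 and 3 at −0.28 and −0.18, with replicate 2 of both genotypes between them, whereas the ATPases stay within −0.08 and 0.07. Values are as deposited.

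The calls, more than the fold changes, depended on single libraries. Wild-type 1 had the lowest value of the 6 libraries in 27 of the 46 genes, and *Pax9*-null 3 the highest in 27. Over the 13 genes called higher, the median deviation from the gene's mean was 0.23, 0.05 and 0.25 in *Pax9*-null 1 to 3 and −0.30, −0.04 and −0.18 in wild-type 1 to 3. Without *Pax9*-null 1 or without *Pax9*-null 3 limma called 0 of the 46 genes, with 5 and 8 higher and 1 lower each at an unadjusted *P* under 0.05, where 12.0% and 14.2% of all genes were higher and 9.49% and 12.3% lower. Over all genes the calls then numbered 301 and 175. The median log2 fold change of the 46 genes was 0.17 and 0.12 in these fits, and that of *Psma3* was 0.45 and 0.44. Without wild-type 1 the median was 0.09, the lowest of the 6 fits that left out 1 library. Without wild-type 1, *Psma3*, *Psmd6* and *Psmd14* stayed higher and 0 were lower, and without wild-type 3, *Psma3* and *Psmd14* stayed higher and *Psmd3* lower. Over all genes the calls without wild-type 1 and without wild-type 3 numbered 1799 and 2141. Without *Pax9*-null 2 the counts of proteasome genes were 14 higher and 1 lower, and without wild-type 2 they were 15 and 0. At an unadjusted *P* under 0.05 in limma, 19 were higher and 1 lower without *Pax9*-null 2, against 17.7% and 15.7% of all genes. Without wild-type 2 these counts were 17 and 1, against 18.7% and 16.2% of all genes.

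The fold changes followed gene composition. Across the 46 genes, which were measured in the same 6 libraries and so are no replicates, Spearman's rho was −0.55 between log2 fold change and GC content and −0.35 between log2 fold change and gene length. Over all genes tested rho was −0.44 and −0.41. For the 46 genes Pearson's *r* was −0.55 and −0.40. The lower 23 genes by GC content, at or below 49.65%, held 12 of the 13 genes called higher and had a median of 0.28. The upper 23 held 1 higher gene (*Psma7*) and the lower gene *Psmd3*, with a median of 0.08. Split at the median length of 2313 bp, the shorter 23 held 6 higher genes and had a median of 0.26. The longer 23 held 7 higher and 1 lower, with a median of 0.11. With the wild-type level of the gene rho was 0.18.

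**Figure D5:**
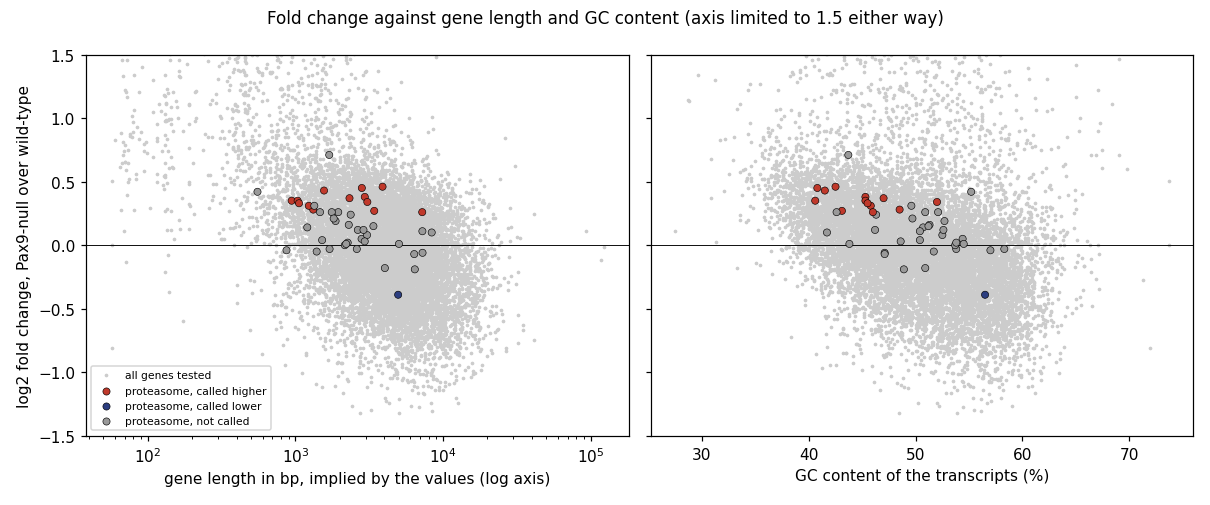
Log2 fold change as deposited against gene length (left, log axis, bp) and transcript GC content (right, %), for all genes tested in grey and the proteasome genes in colour by call. The genes called higher lie mostly towards low GC content, and *Psmd3* lies at 56.5% GC. Spearman's rho with GC content was −0.55 for the proteasome genes and −0.44 over all genes tested.

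Of 41 further genes that act with the proteasome, 40 were in the table and tested, of which 9 were higher and 4 lower, with a median log2 fold change of 0.04. Over all genes tested 14.7% were higher and 12.0% lower, which also stands beside the counts of each list that follows. Proteins that bind the proteasome, import it or bring it substrates made up the list with most calls, with 6 of 15 higher, 1 lower and a median of 0.20. *Txnl1*, for a thioredoxin-like protein of the regulatory particle, was at 7.38, 7.17 and 7.27 log2 RPKM in *Pax9*-null and 6.59, 6.93 and 6.84 in wild-type libraries (0.49 ± 0.11, adjusted *P* = 0.0438). *Zfand5*, for an activator of the proteasome, was at 5.63, 5.66 and 5.52 against 5.02, 5.27 and 5.28 (0.41 ± 0.10, adjusted *P* = 0.0438). *Sem1*, for the smallest lid subunit, which the table lists under its older symbol *Shfm1*, was at 5.63, 5.41 and 5.63 against 4.86, 5.32 and 5.11 (0.46 ± 0.13, adjusted *P* = 0.0591), and its fold change was 0.15 without the trends.

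The deubiquitinase gene *Uchl5* was at 0.33 ± 0.09 (adjusted *P* = 0.0517) but at −0.02 without the trends. *Usp14*, for a further deubiquitinase, and *Akirin2*, for a factor of nuclear import of the proteasome, were higher as deposited by 0.24 and 0.29, and *Akirin2* was at −0.07 without the trends. The shuttle factor gene *Ubqln4* was lower (−0.36 ± 0.09, adjusted *P* = 0.0513), and was at −0.06 without the trends.

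Of the 8 genes that regulate proteasome transcription 1 was lower and 0 were higher, with a median of −0.06 that became 0.15 without the trends. *Nfe2l1*, for the factor that induces proteasome subunit genes when proteasome activity is low, was at 3.66, 4.13 and 3.78 log2 RPKM in *Pax9*-null embryos and at 4.82, 4.29 and 4.36 in wild-type embryos. The groups did not overlap, with a difference of −0.63 ± 0.17 (adjusted *P* = 0.0559), which was −0.66 after quantile normalization and −0.37 without the trends. Its relative *Nfe2l2* was at 3.88, 3.99 and 3.64 against 4.27, 3.76 and 3.67, with overlapping groups. *Ddi2*, for the protease that activates NFE2L1, was at 3.65, 3.63 and 3.60 against 4.06, 3.74 and 3.77, without overlap (−0.23 ± 0.11, adjusted *P* = 0.167), and was at 0.03 without the trends.

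Genes of ubiquitin supply and handling were split, with 3 of 17 higher, 2 lower and a median of 0.05. The conjugating enzyme genes *Ube2d3* and *Ube2d2a* were higher by 0.52 ± 0.11 (adjusted *P* = 0.0414) and 0.35 ± 0.08 (adjusted *P* = 0.0429). *Rps27a*, which encodes ubiquitin fused to a ribosomal protein, was at 8.44, 8.16 and 8.30 log2 RPKM against 7.57, 8.05 and 7.90 (0.46 ± 0.15, adjusted *P* = 0.0744). The ubiquitin-activating enzyme gene *Uba1* was at 6.22, 6.42 and 6.31 against 6.89, 6.59 and 6.64 (−0.39 ± 0.11, adjusted *P* = 0.0549), and *Vcp*, for the ATPase that extracts ubiquitylated proteins, was at −0.29 ± 0.09 (adjusted *P* = 0.0774). The signs of these 5 genes were kept after quantile normalization and without the trends. No gene of the 3 lists passed the test without the trends, where 8 were higher and 3 lower at an unadjusted *P* under 0.05 in limma, against 10.6% and 11.9% of all genes.

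In the data as a whole, *Pax9* lay between −0.63 and −0.43 log2 RPKM in the *Pax9*-null and between 0.63 and 0.96 in the wild-type libraries (−1.32 ± 0.19, adjusted *P* = 0.0155). Between 11724168 and 11931824 reads were recovered in the *Pax9*-null and between 12165343 and 12756889 in the wild-type libraries. The summed level of 7 erythroid genes was 4880, 2630 and 4430 RPKM in *Pax9*-null and 2390 to 2490 RPKM in wild-type libraries, so that *Pax9*-null 1 and 3, which carry the higher proteasome values, also carry more erythroid RNA, with *Hbb-bh1* called higher. Wild-type 1 had the lowest sum of 6 neural tube genes (42.2 RPKM, against 71.2 to 79.0 in the other 5) and the highest of 6 endothelial genes (91.3 RPKM against 43.4 to 58.9), of which *Cdh5* and *Tie1* were called lower and the median log2 fold change was −0.48. The sum of 7 cardiomyocyte genes was 75.3 RPKM in wild-type 3 and 1070 to 1430 RPKM elsewhere, with 0 called and a range that includes both genotypes. Sums of neural crest genes were 64.1 to 67.5 RPKM against 54.3 to 56.5, with *Twist1* higher and *Sox10* lower. Most of these sums is *Twist1* (5.78 to 5.84 against 5.41 to 5.51 log2 RPKM), and the list's median log2 fold change was −0.07. Pharyngeal endoderm genes were present in all libraries at 75.7 to 91.9 against 72.2 to 90.6 RPKM, with 0 called. Of 6 macrophage genes *Ptprc*, *Adgre1* and *Fcgr1* are not rows of the table, and the other 3 summed to 1.11 to 2.16 against 1.03 to 2.39 RPKM. The part of these cell types in the proteasome values was not tested.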

How the data were processed

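RNA-seq of 6 embryonic pharyngeal regions was deposited as 1 table of log2 RPKM values for 14647 genes. Per the labels' processing notes, the authors used Trimmomatic 0.32, STAR 2.5.1a and featureCounts 1.5.1 on GRCm38, whose default ignores strand, and per the study's methods kept uniquely mapped, non-duplicate reads and sub-sampled the libraries. The function behind the deposited log2 values is not given in the sources used here. They matched RPKM with a prior count of 0.5, and 82.6% of values gave whole reads (within 0.05 reads) at the annotated gene length, the others after a search of lengths.

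Values were tested as deposited with limma 3.58.1 in R 4.3.3 (lmFit, eBayes with trend, no block, two-sided) on 13547 genes whose mean reached 0.5 RPKM. The Benjamini-Hochberg adjustment ran over all of them, and an adjusted *P* of 0.1, the study's threshold, defined calls. The script was tested on simulated data. Gene length is the one the values imply, and GC content that of GENCODE M21 transcripts. Trends were natural splines with 5 degrees of freedom on the annotated length and GC content. The alternatives were pseudocounts of 0.1 and 1, no filter or 5 RPKM, median centring, quantile normalization, a replicate block, no variance trend, array weights, removal of the trends, and each library left out. Added after seeing the data were voom on the recovered reads and trends with the implied length.

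Members and lists were chosen with earlier results of these data known. Values per library are given for called genes, for the genes with the largest and smallest fold change of a class, and for catalytic subunits, and for further genes picked after their values were seen. Of the related genes, those past the threshold were named, at most 5 a list by adjusted *P*, and *Usp14*, *Akirin2*, *Nfe2l2* and *Ddi2* after their values were seen. One marker gene is not reported here and was left out of its list.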

Additional observations from a re-analysis of the deposited data

How the results depend on the processing

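Of the 46 proteasome genes 13 were called higher and 1 lower as deposited, and 9 and 4 of the 40 related genes. The count of higher proteasome genes was 1 after quantile normalization, 1 with the replicate block, 7 without the variance trend, 2 at an adjusted *P* of at most 0.05, and 0 without the length and GC trends, with or without the replicate block and with the implied length. Without one library it ranged from 0 to 15. The count of lower proteasome genes was 5, 0, 1, 0, 5 (0 with the block) and 8 under the same alternatives, and 0 to 1 without one library. Over all genes the calls in both directions numbered 3611 as deposited, 3175 after quantile normalization and 1335 at 0.05. They numbered 493 without the trends and 699 with the implied length. For the related genes the higher count was 4 after quantile normalization, 2 with the replicate block, 4 at 0.05, 0 under each removal of trends and 0 to 10 without one library, and the lower count was 0 with the block, at 0.05 and under each removal of trends, and 0 to 4 without one library. The median log2 fold change of 0.16 became −0.02 after quantile normalization and 0.01 without the trends by either length. The difference in the *Psmb10* to *Psmb7* ratio of −0.29 became −0.10, −0.08 and −0.07 in that order. Among the genes called as deposited, the sign turned after quantile normalization for *Psma2* (−0.02) and *Psmb1* (−0.03). Without the trends, with or without the block, it turned for *Psma5* (−0.20), *Psma6* (−0.32), *Psmg2* (−0.16) and the related gene *Uchl5* (−0.02). The sign of the related gene *Akirin2* also turned without the trends (−0.07). With the implied length the proteasome genes that turned were *Psma2* (−0.52), *Psma5* (−0.16), *Psma6* (−0.28), *Psmb1* (−0.33), *Psmc6* (−0.19) and *Psmg2* (−0.33). Of these, *Psma2*, *Psma6*, *Psmb1* and *Psmg2* were then called lower. Among the 32 proteasome genes not called, the sign of 15, 14 and 11 turned under the 3 alternatives, and *Psmc1* in the first and *Psmb2* and *Psmd10* in the others were then called lower. Trends with the annotated length and with the implied length thus differ for *Psma2*, *Psmb1* and *Psmc6*. Their annotated lengths were 3673, 4595 and 3498 bp, and the lengths implied by the deposited values were 944, 1036 and 1564 bp. Why the lengths differ was not tested. Pseudocounts, filters, centring, array weights and voom left between 11 and 17 genes higher, and voom called all 13 of the deposited-value calls. Over all genes voom called 3899. The methods of the study name no pairing of embryos by replicate number. The deviations of same-numbered embryos had correlations of −0.02, −0.17 and 0.26, and 2 of 6 libraries correlated best with their own number. With 3 embryos of a genotype these values cannot decide whether the numbers pair embryos. With the replicate block 1377 genes were called in all, of which *Psma3* was the one proteasome gene, against 9 higher and 1 lower at an unadjusted *P* under 0.05 (15.4% and 13.4% of all genes). Counts with 10 to 22 reads limit *Psma8*.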
